A study of Mus musculus with 18 samples.

Results

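A set of 38 genes of glycolysis and the hypoxia response was chosen by symbol, out of 14695 genes in the count table, and all 38 were found. They are 4 carriers of glucose and lactate, 16 glycolysis enzymes, 3 kinases that set the flux, 3 genes of oxygen sensing, 8 other hypoxia-responsive genes and 4 enzymes of glycogen and glucose phosphates. The name of Gbe1 was blank in the table and the gene was found by its identifier, ENSMUSG00000022707. Aldoa had a second row under the same symbol (ENSMUSG00000114515), with at most 1.49 CPM (a count scaled to its library's total with the factors of the fit) in any library, and this row is not counted among the 38.

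Glycolysis turns glucose into pyruvate and lactate in a chain of cytosolic enzymes. Glucose enters through carriers of the SLC2A family and lactate leaves through SLC16A carriers. Many genes of this chain are also targets of the hypoxia-inducible factor HIF-1, whose alpha subunit, encoded by Hif1a, is marked for destruction by prolyl hydroxylases when oxygen is present. CD8+ T cells raise glycolysis when they are activated and divide, and HIF-1, MYC and mTORC1 are known drivers of these genes in T cells.

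Poly-A RNA was sequenced from primary mouse CD8+ T cells of spleen and lymph node in 6 groups of 3 libraries each. The cells were Atf4 knockout, Cebpg knockout or Rosa26-targeted, all edited with CRISPR/Cas9, and each kind was cultured for 24 hours either with halofuginone or without it. Halofuginone inhibits prolyl-tRNA synthetase, ATF4 is a transcription factor of the stress response to such inhibition, CEBPG is a partner of ATF4 in binding DNA, and the Rosa26 site is a neutral target, so that its cells are the control of both knockouts. The labels give neither the dose nor the age or strain of the mice. They do not say if replicates are biological, and p-values reflect the variation among the libraries at hand, which may be technical.

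Edited transcripts can stay present after small insertions or deletions, so the level of a targeted gene does not check the labels. Atf4 averaged 315 ± 57.3 CPM in Atf4 knockout, 315 ± 26.6 CPM in Cebpg knockout and 379 ± 42.8 CPM in Rosa26 cells with halofuginone, and 285 ± 14.4, 278 ± 6.57 and 268 ± 12.5 CPM without it (SD, n = 3 each). Cebpg averaged 130.5 ± 7.29, 101 ± 6.37 and 173 ± 8.67 CPM with it and 58.8 ± 0.89, 56.4 ± 2.33 and 53.7 ± 1.28 CPM without it.

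Libraries held 14.2 to 20.3 M counts, and counts rather than proteins or flux were measured. In bulk RNA, fewer cells that use a gene and less RNA of it per cell cannot be told apart. Cd8a ran from 930 to 1169 CPM and Cd3e from 152 to 196 CPM in all libraries. Cd4, the B cell genes Ms4a1 and Pax5, the myeloid genes Itgam, Adgre1, Csf1r and Lyz2 and the erythroid gene Hba-a1 had no row in the table analysed. The measured markers of CD4 T cells (2 of 4 genes) summed to 15.4 to 36.3 CPM with halofuginone and 8.19 to 13.9 CPM without it, and the 1 measured NK cell marker of 4, Eomes, to 16.0 to 32.6 CPM with it and 46.7 to 86.1 CPM without it. The other listed NK cell genes, Ncr1, Klrb1c and Klra8, had no row, and Eomes alone does not show NK cells. B cell markers (3 of 6) summed to 7.43 to 11.4 CPM with it and 9.49 to 14.7 CPM without it. Myeloid markers (1 of 8) summed to 2.79 to 6.87 CPM with it and 2.24 to 3.44 CPM without it, and erythroid and platelet markers (3 of 6) to 4.04 to 12.6 CPM with it and 3.03 to 7.95 CPM without it. The part of these markers in the results was not tested. Mki67, a marker of dividing cells, averaged 302 ± 12.6 CPM in Atf4 knockout, 355 ± 27.5 CPM in Cebpg knockout and 450.2 ± 26.7 CPM in Rosa26 cells with halofuginone, against 979 ± 31.9, 1212 ± 77.8 and 1366 ± 17.8 CPM without it (SD, n = 3 each). Its part in the results was not tested.

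In each halofuginone group, 1 library stood apart from the other 2 (Atf4 knockout replicate 3, Cebpg knockout replicate 3 and Rosa26 replicate 2). The share of counts in 829 genes of unconfirmed transcripts was 0.0542% to 0.151% in these 3 libraries and 0.189% to 0.302% in the other halofuginone libraries. Malat1, a nuclear RNA, ran from 672 to 1959.7 CPM in these 3 and from 2074 to 3579.7 CPM in the others. Untreated Atf4 and Cebpg knockout libraries held 0.194% to 0.250% in the same genes, with 2026 to 2606 CPM of Malat1, and untreated Rosa26 libraries 0.09997% to 0.133%, with 858 to 1168 CPM. Both values were thus lower in untreated Rosa26 libraries than in all untreated knockout libraries, the side on which the 3 treated libraries stood. These 3 libraries also held the highest level of their group for most of the 38 genes. The Atf4 knockout library was highest for 31 genes, the Cebpg knockout library for 28 and the Rosa26 library for 32, against 49.0%, 44.5% and 50.5% of all genes. Results were therefore also computed without these 3 libraries together.

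HIF-1 binds DNA at a core that includes the letters ACGTG. RefSeq promoter windows of 300 bases (250 before and 50 after the start, mouse build GRCm38.p6; the counts were made on GRCm39) were matched to 35 of the 38 genes. ACGTG on either strand was in at least 1 window of 25 of these 35 genes (71.4%), against 2861 of 9636 measured genes with a window (29.7%) and 21.8% of all 27025 genes in the table of windows. Counted by window, 29 of 51 windows of the 35 genes held it (56.9%), against 25.8% of 12248 windows of measured genes and 19.6% of all 32851 windows of the same length. GCGTG, the other common form of the core, was in 21 of the 35 genes and 55.9% of measured genes, and the C/EBP-ATF composite letters TTGCNTCA were in 0 of the 35 and 3.64% of measured genes. A match is a description of the letters in this window and not of binding. The 38 were chosen as genes of glycolysis and the hypoxia response, many of them known HIF-1 targets. A higher share of ACGTG than over all genes is therefore not a finding from these counts.

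The windows of 4 genes are given to show these letters in genes with different responses. They are Slc16a3, with the largest fall, Ldha and Bnip3, which also fell, and Hif1a, which rose. ACGTG or its reverse complement CACGT is in capitals, and where both overlap the run is CACGTG.
Slc16a3 promoter, chr11:120948817-120949116, plus strand: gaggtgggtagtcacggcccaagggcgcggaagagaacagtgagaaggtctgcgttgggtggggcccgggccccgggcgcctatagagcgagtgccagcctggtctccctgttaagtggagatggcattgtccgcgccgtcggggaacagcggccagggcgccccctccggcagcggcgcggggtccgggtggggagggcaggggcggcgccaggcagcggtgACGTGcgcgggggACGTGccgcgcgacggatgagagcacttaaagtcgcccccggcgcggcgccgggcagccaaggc
Ldha promoter, chr7:46845554-46845853, plus strand: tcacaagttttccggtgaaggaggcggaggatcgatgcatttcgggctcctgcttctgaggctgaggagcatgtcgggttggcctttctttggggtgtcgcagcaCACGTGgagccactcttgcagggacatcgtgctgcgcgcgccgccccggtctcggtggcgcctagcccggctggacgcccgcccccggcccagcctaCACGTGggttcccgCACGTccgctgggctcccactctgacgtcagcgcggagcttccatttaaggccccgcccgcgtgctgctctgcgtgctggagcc
Bnip3 promoter, chr7:138909457-138909756, minus strand: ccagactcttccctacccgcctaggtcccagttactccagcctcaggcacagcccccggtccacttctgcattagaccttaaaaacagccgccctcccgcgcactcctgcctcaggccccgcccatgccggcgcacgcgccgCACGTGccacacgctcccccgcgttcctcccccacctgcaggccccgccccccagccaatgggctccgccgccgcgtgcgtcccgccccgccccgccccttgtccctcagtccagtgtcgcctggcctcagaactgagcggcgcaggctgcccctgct
Hif1a promoter, chr12:73907617-73907916, plus strand: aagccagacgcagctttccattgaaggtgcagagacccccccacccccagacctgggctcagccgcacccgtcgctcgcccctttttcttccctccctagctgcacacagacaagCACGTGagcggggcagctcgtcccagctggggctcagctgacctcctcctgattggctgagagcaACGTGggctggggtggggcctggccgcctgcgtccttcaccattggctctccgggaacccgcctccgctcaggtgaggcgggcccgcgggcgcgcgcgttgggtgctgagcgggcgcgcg
Of the transcripts searched for the bases just after the start, some held them for Slc16a3 and Bnip3 and 0 for Ldha and Hif1a. Ldha has a second window in the table, with 0 matches. In Slc16a3 the matches begin at -27 and -14 from the start. The Ldha window shown holds 5 matches, 4 of them in 2 palindromic runs, beginning from -145 to -34. The Hif1a window, of a gene that rose, holds 3 matches, 2 of them in 1 palindromic run, beginning from -135 to -70. Among matched genes the letters were in 18 of 25 that fell with halofuginone in Rosa26 cells, 3 of 4 that rose and 4 of 6 that did not pass the test.

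**Figure D1:**
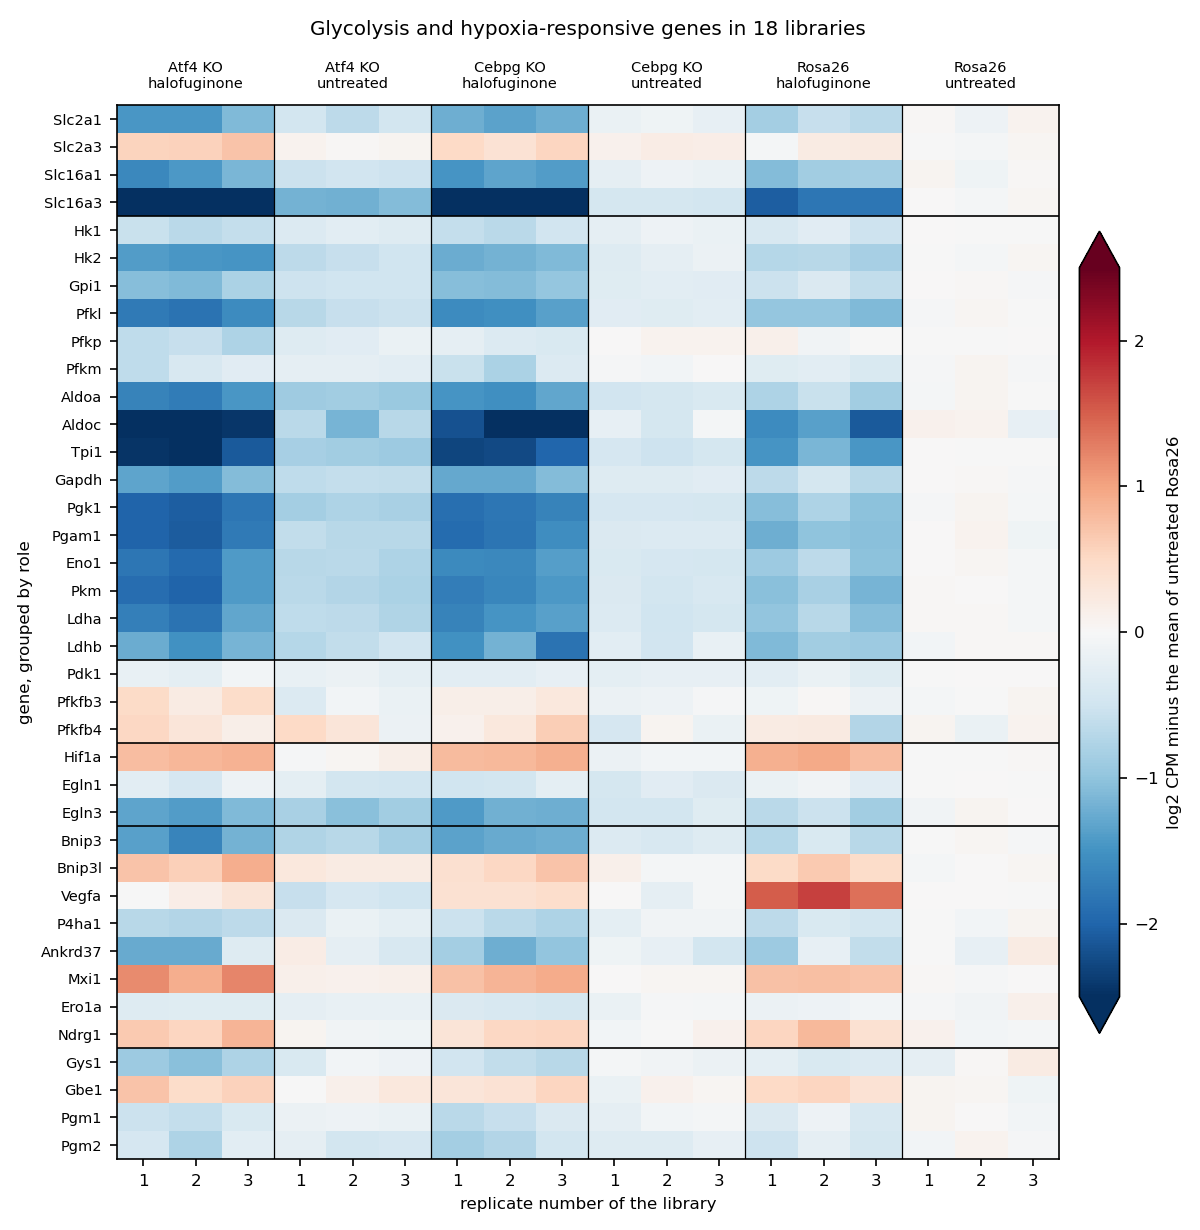
Level of the 38 genes (rows, by role) in each of the 18 libraries (columns, by group and replicate), as log2 CPM minus the mean of untreated Rosa26 libraries, with the colour scale ending at 2.5. Most glycolysis enzymes are lowest in Atf4 and Cebpg knockout libraries with halofuginone. In halofuginone libraries Hif1a, Bnip3l, Vegfa, Mxi1, Ndrg1 and Gbe1 are above the untreated libraries of the same genotype.

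Halofuginone lowered most of these genes in each genotype. A gene was called at an adjusted p under 0.05 by edgeR's quasi-likelihood test with Benjamini-Hochberg adjustment over all 14695 genes, and an adjusted p comes from that fit over all 18 libraries unless a left-out library or an alternative is named beside it. Changes given without a unit are log2 fold changes, treated over untreated or knockout over Rosa26. In Atf4 knockout cells 24 of 38 fell and 8 rose, where 26.5% and 23.1% of all genes did. In Cebpg knockout cells 27 fell and 8 rose, with 28.0% and 23.1% of all genes. In Rosa26 cells 25 fell and 6 rose, with 24.1% and 23.6% of all genes. The median log2 fold change of the 38 was -0.45, -0.64 and -0.50 in Atf4 knockout, Cebpg knockout and Rosa26 cells, against -0.0418, -0.0294 and 0.0216 over all genes. The same 22 genes fell in all 3 genotypes, which 18.8% of all genes did, and 6 rose in all 3 (16.0% of all genes). The 3 comparisons use different libraries.

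Many of these genes were lower in the knockouts than in Rosa26 cells without any drug. The share of unconfirmed transcripts and Malat1 also differed between these groups, at 0.194% to 0.250% and 2026 to 2606 CPM in the untreated knockouts and 0.09997% to 0.133% and 858 to 1168 CPM in untreated Rosa26 libraries, and their part in the result was not tested. Without halofuginone, 26 of the 38 were lower and 0 higher in Atf4 knockout cells (14.3% and 11.7% of all genes), and 15 were lower and 0 higher in Cebpg knockout cells (2.29% and 2.71%). With the drug, 22 were lower and 3 higher in Atf4 knockout than in Rosa26 cells (16.3% and 11.8%), and 23 lower and 2 higher in Cebpg knockout cells (13.1% and 5.74%). The untreated Cebpg count depended on single libraries. It was 2 without Cebpg knockout replicate 1. It was 3 without Cebpg knockout replicate 2 or 3 or without any 1 of the 3 Rosa26 libraries, and 9 with a replicate block. Without the 3 libraries that stood apart it was 20, and the shares of all genes rose as well, to 14.2% lower and 12.5% higher. Libraries were also compared without a test, by whether the 3 libraries of each group overlapped. With halofuginone, 25 genes were lower and 8 higher with no overlap in Atf4 knockout cells (28.9% and 25.4% of all genes), 27 and 9 in Cebpg knockout cells (32.7% and 28.0%) and 26 and 6 in Rosa26 cells (27.9% and 27.2%). Without the drug, 29 were lower and 2 higher in Atf4 knockout than in Rosa26 libraries (25.6% and 24.2%), and 22 and 2 in Cebpg knockout libraries (20.6% and 19.3%). With it, 24 and 3 were so in Atf4 knockout libraries (18.3% and 15.6%) and 22 and 2 in Cebpg knockout libraries (20% and 13.1%). The 4 knockout comparisons share Rosa26 libraries in pairs and, with the drug comparisons, share every group.

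The 38 genes took 0.64% ± 0.0236 of all counts in Atf4 knockout, 0.691% ± 0.0337 in Cebpg knockout and 0.93% ± 0.0303 in Rosa26 libraries with halofuginone (SD, n = 3 each). Without the drug the shares were 0.996% ± 0.0176, 1.18% ± 0.00864 and 1.44% ± 0.0243. The groups did not overlap, with the exception of the treated knockouts, whose libraries ran from 0.617% to 0.664% in Atf4 knockout and from 0.658% to 0.726% in Cebpg knockout cells. A set of 7 abundant enzymes with many processed pseudogenes (Gapdh, Eno1, Aldoa, Pkm, Ldha, Pgk1 and Tpi1) held most of it, with 0.389% ± 0.0299 in treated Atf4 knockout and 1.11% ± 0.0254 in untreated Rosa26 libraries.

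Of the 4 carriers, 3 fell with halofuginone in every genotype and 1 did not, where 18.8% of all genes fell in every genotype. Slc16a3, which encodes the lactate exporter MCT4, had the largest fall of all 38 genes. It had 5.71, 7.74 and 9.31 CPM in Atf4 knockout libraries with halofuginone, against 27.6, 27.2 and 29.6 CPM without it. In Cebpg knockout cells it had 8.25, 8.44 and 9.72 CPM with the drug, against 45.9, 46.2 and 45.1 CPM. In Rosa26 cells the values were 14.9, 17.9 and 17.9 CPM with it, against 62.6, 60.4 and 64.3 CPM. Every treated library was below every untreated library of any genotype. The fold changes were 3.7-fold, 5.2-fold and 3.71-fold lower in Atf4 knockout, Cebpg knockout and Rosa26 cells (log2 -1.89 ± 0.121, -2.38 ± 0.117 and -1.89 ± 0.108, SE; largest of the 3 adjusted p = 9.77e-11). It was lower in both knockouts without the drug, by 1.15 in Atf4 knockout cells (adjusted p = 3.06e-07) and 0.45 in Cebpg knockout cells (adjusted p = 0.0151), where the call held under 20 of 25 alternatives (adjusted p 4.01e-07 to 0.0646). The 3 untreated genotypes did not overlap, in the order Atf4 knockout, Cebpg knockout, Rosa26 from low to high.

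Slc16a1 encodes MCT1, which carries lactate and pyruvate in both directions. It averaged 70.4 ± 11.6 CPM with and 129 ± 2.31 CPM without halofuginone in Atf4 knockout cells, 69.8 ± 3.6 CPM with it and 164 ± 6.0 CPM without it in Cebpg knockout cells and 96.7 ± 8.56 CPM with it and 184 ± 12 CPM without it in Rosa26 cells (SD, n = 3 each). It fell by 0.88, 1.23 and 0.93 (log2), with no overlap of treated and untreated libraries.

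The glucose carriers moved in different directions. Slc2a1, encoding GLUT1, the carrier that activated T cells bring to the surface, fell by 0.80, 1.1 and 0.70 (log2) in Atf4 knockout, Cebpg knockout and Rosa26 cells. Slc2a3, encoding the high-affinity carrier GLUT3, had 99.7, 101 and 111 CPM with and 72, 69.1 and 71 CPM without the drug in Atf4 knockout cells, 96.1, 87.8 and 98.4 CPM with it and 73.1, 76.9 and 75.9 CPM without it in Cebpg knockout cells, and 66.1, 78.8 and 79.5 CPM with it and 67.7, 66 and 70.3 CPM without it in Rosa26 cells. Treated and untreated libraries were separate in both knockouts and overlapped in Rosa26 cells. It rose by 0.56 in Atf4 knockout (adjusted p = 1.4e-06) and 0.32 in Cebpg knockout cells (adjusted p = 0.000622), and in Rosa26 cells it was 0.14 (adjusted p = 0.121, 95% interval -0.0172 to 0.29). Its response differed between Atf4 knockout and Rosa26 cells by 0.42 (adjusted p = 0.0136), and between Cebpg knockout and Rosa26 cells the difference was 0.19 (adjusted p = 0.437).

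The balance of the 2 glucose carriers moved toward Slc2a3 with the drug in each genotype. Per kilobase of exon, Slc2a1 stood at 0.727 to 0.852 times Slc2a3 in Atf4 knockout libraries with halofuginone and 1.86 to 2.06 times without it. In Cebpg knockout libraries the ratio was 0.884 to 0.909 with and 2.31 to 2.47 without the drug, and in Rosa26 libraries 1.6 to 1.71 with and 2.81 to 3.06 without it. By this measure Slc2a3 was the more abundant in the 6 treated knockout libraries, and Slc2a1 in the other 12. The length covers all annotated exons of a gene and not a single transcript, and where the carriers are equal depends on it. By counts alone the ratio was 0.352 to 0.412 with and 0.902 to 0.999 without the drug in Atf4 knockout libraries. It was 0.428 to 0.440 and 1.12 to 1.20 in Cebpg knockout libraries, and 0.774 to 0.829 and 1.36 to 1.48 in Rosa26 libraries.

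**Figure D2:**
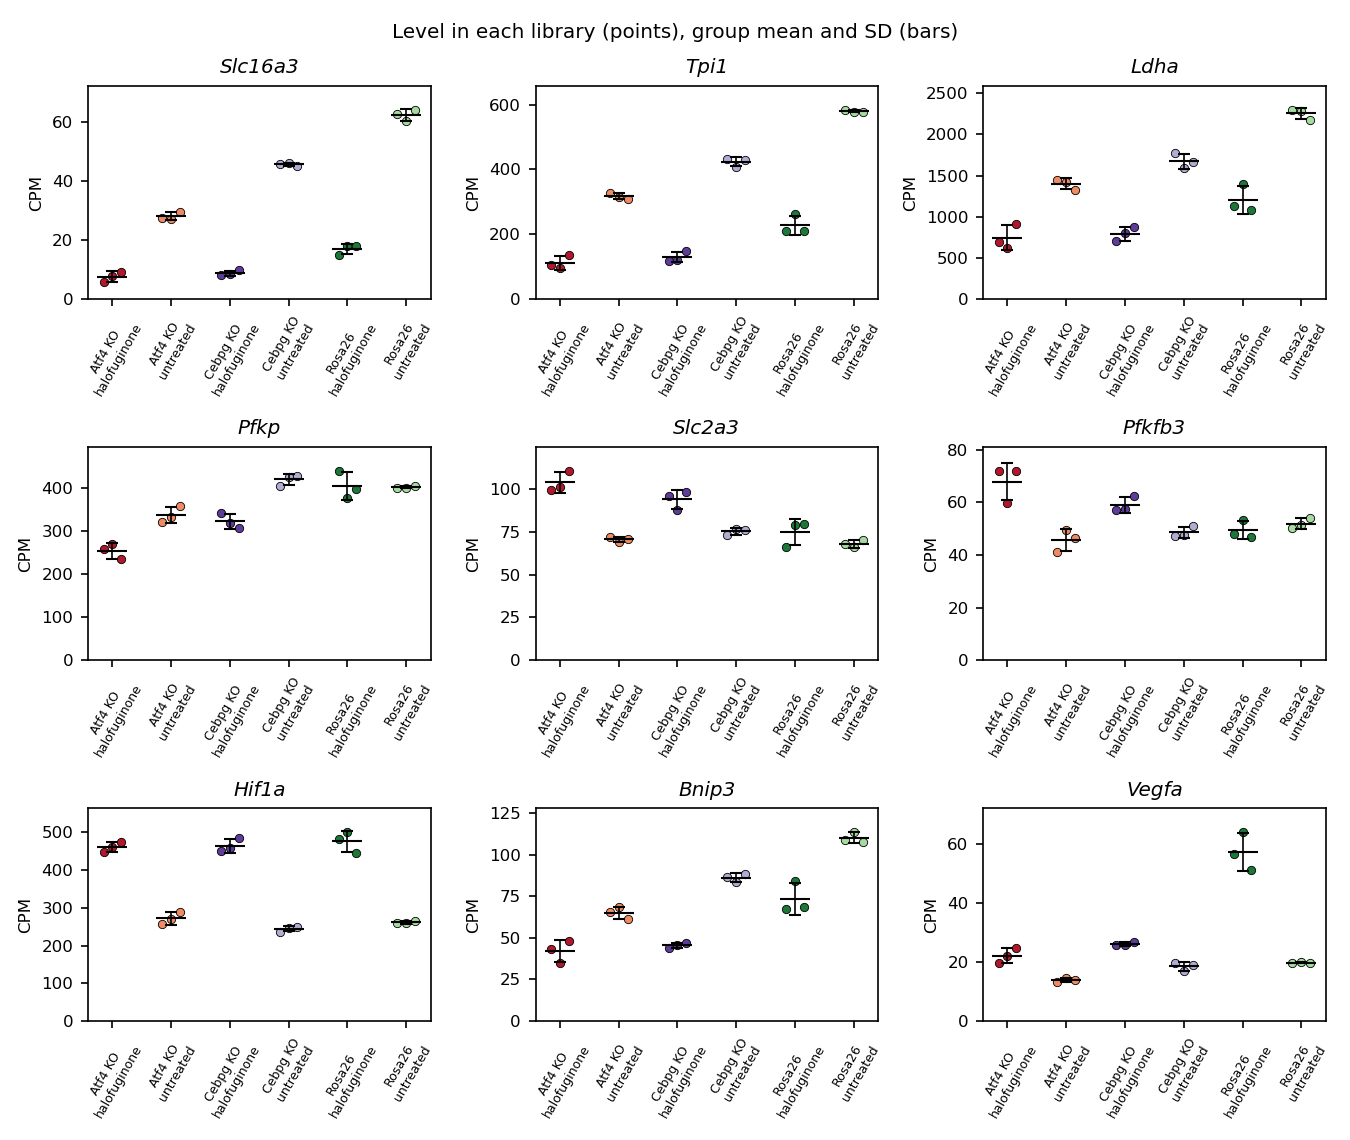
CPM of 9 genes in each library (points), with the mean and SD of the 3 libraries of a group (bars), axes starting at 0. Slc16a3, Tpi1, Ldha and Bnip3 are lower with halofuginone and in the knockouts, Hif1a is higher with the drug in each genotype, Vegfa rises most in Rosa26 cells, and Slc2a3 and Pfkfb3 rise in the knockouts.

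Nearly all glycolysis enzymes fell with halofuginone. Of all genes, 28.0%, 26.5% and 24.1% fell in Cebpg knockout, Atf4 knockout and Rosa26 cells. Of the enzymes, all 16 fell in Cebpg knockout cells and 15 of 16 in Atf4 knockout and in Rosa26 cells, with median log2 fold changes of -1.09, -0.89 and -0.88. The exceptions were Pfkm, the muscle form of phosphofructokinase, in Atf4 knockout cells (-0.20, adjusted p = 0.112), and Pfkp, its platelet form, in Rosa26 cells (0.0101, adjusted p = 0.919). The call of Pfkm in Rosa26 cells (-0.31, adjusted p = 0.013) ended without Rosa26 halofuginone replicate 3 or untreated replicate 2 (adjusted p up to 0.0578).

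Hexokinases start the chain by adding phosphate to glucose. Hk2, the inducible form, fell by 0.86, 0.95 and 0.74 in Atf4 knockout, Cebpg knockout and Rosa26 cells, and Hk1, the constitutive form, by 0.30, 0.41 and 0.39. Gpi1, glucose-6-phosphate isomerase, fell by 0.47, 0.75 and 0.50, and Pfkl, the liver form of phosphofructokinase, by 1.12, 1.20 and 1.01.

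At the triose steps, Tpi1, which interconverts the triose phosphates, had 106, 95.5 and 136 CPM with halofuginone in Atf4 knockout cells, against 327, 316 and 308 CPM without it. In Cebpg knockout cells it had 118, 122 and 148 CPM with the drug, against 433, 407 and 430.0 CPM, and in Rosa26 cells 209, 261 and 211 CPM, against 584, 579 and 577 CPM. Treated and untreated libraries were far apart, and Tpi1 was 2.82-fold, 3.28-fold and 2.55-fold lower (log2 -1.49 ± 0.111, -1.71 ± 0.111 and -1.35 ± 0.109, SE). Aldoa, the main aldolase, fell by 0.72, 1.01 and 0.72. Aldoc, a minor aldolase here at 10.9 CPM in untreated Rosa26 cells, fell by 1.87, 2.24 and 1.64. Gapdh, often used as a reference transcript, was not constant: it averaged 1106 ± 130.3 CPM with and 1738 ± 29 CPM without the drug in Atf4 knockout cells, 1148 ± 90.0 CPM with it and 2146 ± 28.7 CPM without it in Cebpg knockout cells, and 1764 ± 173 CPM with it and 2658 ± 67.6 CPM without it in Rosa26 cells (SD, n = 3 each). Gapdh and several other enzymes have near-identical pseudogenes, so their counts are uncertain where reads could be split.

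The lower steps, which yield ATP and lactate, fell as well. Pgk1, phosphoglycerate kinase, had 229.6, 221 and 260.0 CPM in Atf4 knockout libraries with halofuginone and 506, 536 and 521 CPM without it. Cebpg knockout libraries had 248, 263 and 288 CPM with it and 684, 687 and 676 CPM without it, and Rosa26 libraries 439.7, 536 and 450.2 CPM with it and 901, 957 and 888 CPM without it. Its falls were 1.14, 1.36 and 0.95. Pgam1, the mutase that follows, fell by 1.28, 1.41 and 1.09, enolase Eno1 by 0.99, 1.11 and 0.86, and pyruvate kinase Pkm by 1.02, 1.19 and 1.00. Ldha, the lactate dehydrogenase subunit that favours lactate, fell by 0.92, 1.07 and 0.91, to 689, 626 and 915 CPM in Atf4 knockout libraries, against 1453, 1429 and 1330.1 CPM untreated. Ldhb, its partner subunit at 7.98 CPM in untreated Rosa26 cells, fell by 0.69, 1.19 and 0.96.

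**Figure D3:**
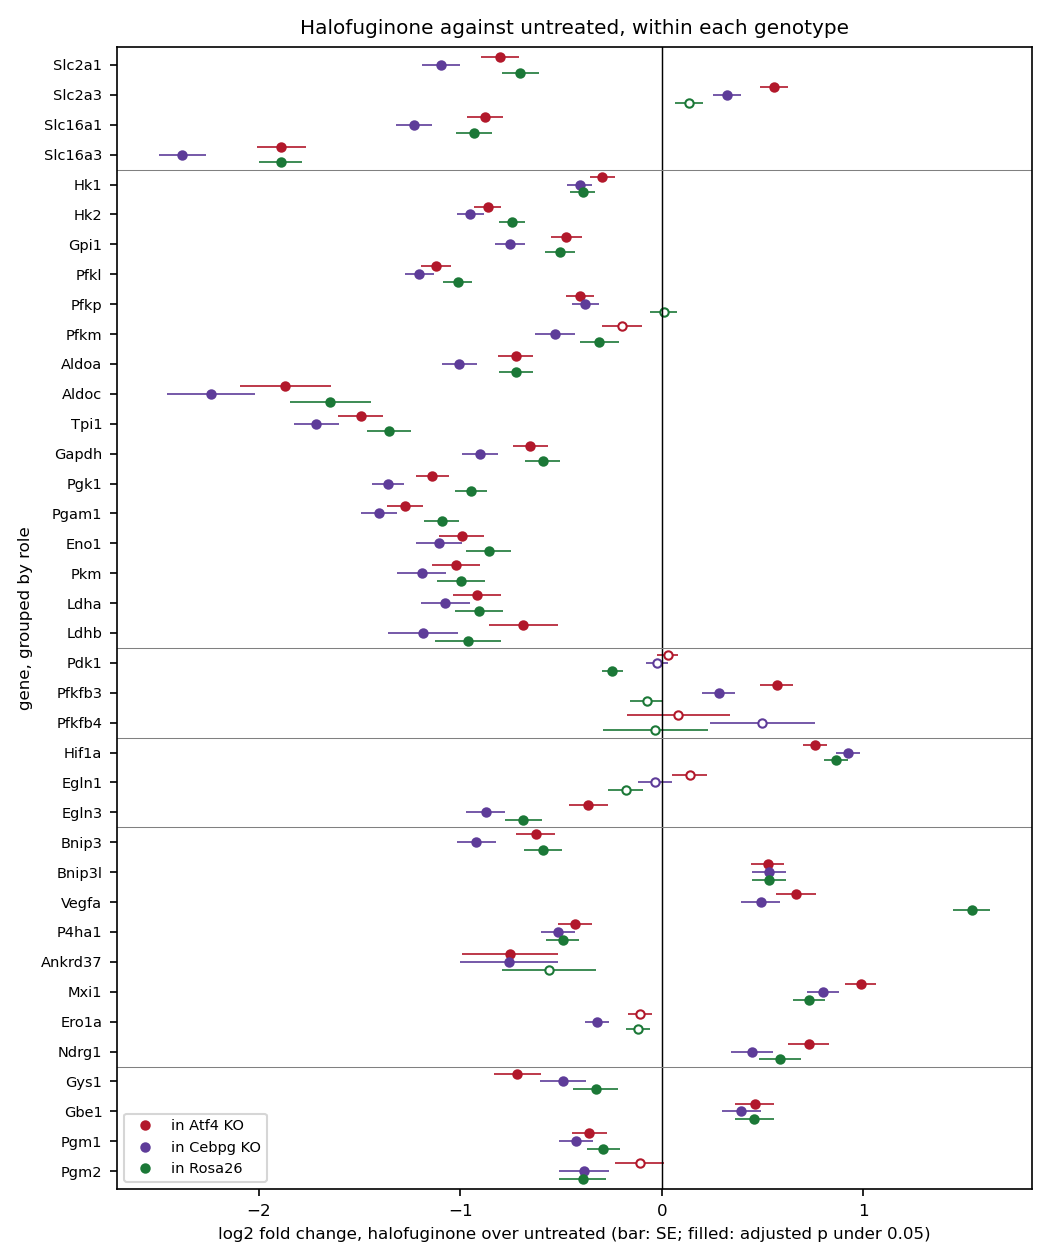
Log2 fold change of each gene (rows, by role) with halofuginone over untreated in Atf4 knockout, Cebpg knockout and Rosa26 cells, with SE as bars and filled points where the adjusted p is under 0.05. The points of most enzymes lie left of 0 in all 3 genotypes, with Slc16a3, Aldoc and Tpi1 farthest, and Vegfa lies right of 0 in all 3, farthest in Rosa26 cells.

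Enzymes were also lower in the knockouts without the drug. In untreated cells 15 of the 16 were lower in Atf4 knockout than in Rosa26 cells (median -0.64), and 10 of 16 in Cebpg knockout cells (median -0.31). Of all genes, 14.3% and 2.29% were lower. Aldoa averaged 503 ± 9.36 CPM in Atf4 knockout and 695 ± 27.2 CPM in Cebpg knockout cells, against 936 ± 39.9 CPM in Rosa26 cells (log2 -0.90 and -0.43; adjusted p = 6.65e-07 and 0.00819). Pgk1 was -0.81 (adjusted p = 6.9e-07) and -0.42 (adjusted p = 0.00484). Both Aldoa and Pgk1 kept their call in Cebpg knockout cells under all 25 alternatives, with adjusted p up to 0.0474 and 0.032, which none of the other genes did. Pkm was -0.73 (adjusted p = 0.000189) in Atf4 knockout and -0.40 (adjusted p = 0.0556) in Cebpg knockout cells.

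The untreated genotypes formed a graded order. For 28 of 38 genes the means ran Atf4 knockout, Cebpg knockout, Rosa26 from low to high (28.2% of all genes), and for 17 genes all 9 libraries were separated in that order (7.55% of all genes). Of those 17, 13 were glycolysis enzymes, and the others were Slc16a1, Slc16a3, Egln3 and Bnip3. With halofuginone 20 genes had their means in that order (24.7% of all genes), and 4 had all libraries separated, namely Hk2, Pfkp, Vegfa and Gys1 (2.42%). Mki67 had the same order in both conditions. Without the drug, the share of unconfirmed transcripts was 0.194% to 0.250% in Atf4 knockout and 0.199% to 0.213% in Cebpg knockout libraries, which overlapped, against 0.09997% to 0.133% in Rosa26 libraries. The part of these values in the order was not tested.

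With halofuginone, 14 of 16 enzymes were lower in Atf4 knockout and 15 of 16 in Cebpg knockout cells than in Rosa26 cells. Of all genes, 16.3% and 13.1% were lower. Tpi1 was -1.01 and -0.82, Pgk1 -1.01 and -0.84, Eno1 -0.85 and -0.66 and Gapdh -0.67 and -0.62 (log2, Atf4 and Cebpg knockout over Rosa26; largest of the 8 adjusted p = 0.000314). The calls of Hk1, Ldhb and Aldoc in Cebpg knockout cells were less firm, being kept under 14 of 25, 7 of 24 and 21 of 25 alternatives. The call of Aldoc ended without replicate 2 of treated Rosa26 or treated Cebpg knockout cells. That of Hk1 ended without replicate 1 or 2 of either of these groups or replicate 3 of either untreated group. That of Ldhb ended without treated Rosa26 replicate 2 or 3, treated Atf4 knockout replicate 3, treated Cebpg knockout replicate 1 or 3, untreated Atf4 knockout replicate 2, untreated Cebpg knockout replicate 1 or 3 or any untreated Rosa26 library. Over the alternatives the adjusted p reached 0.215 for Hk1, 0.313 for Ldhb and 0.11 for Aldoc.

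**Figure D4:**
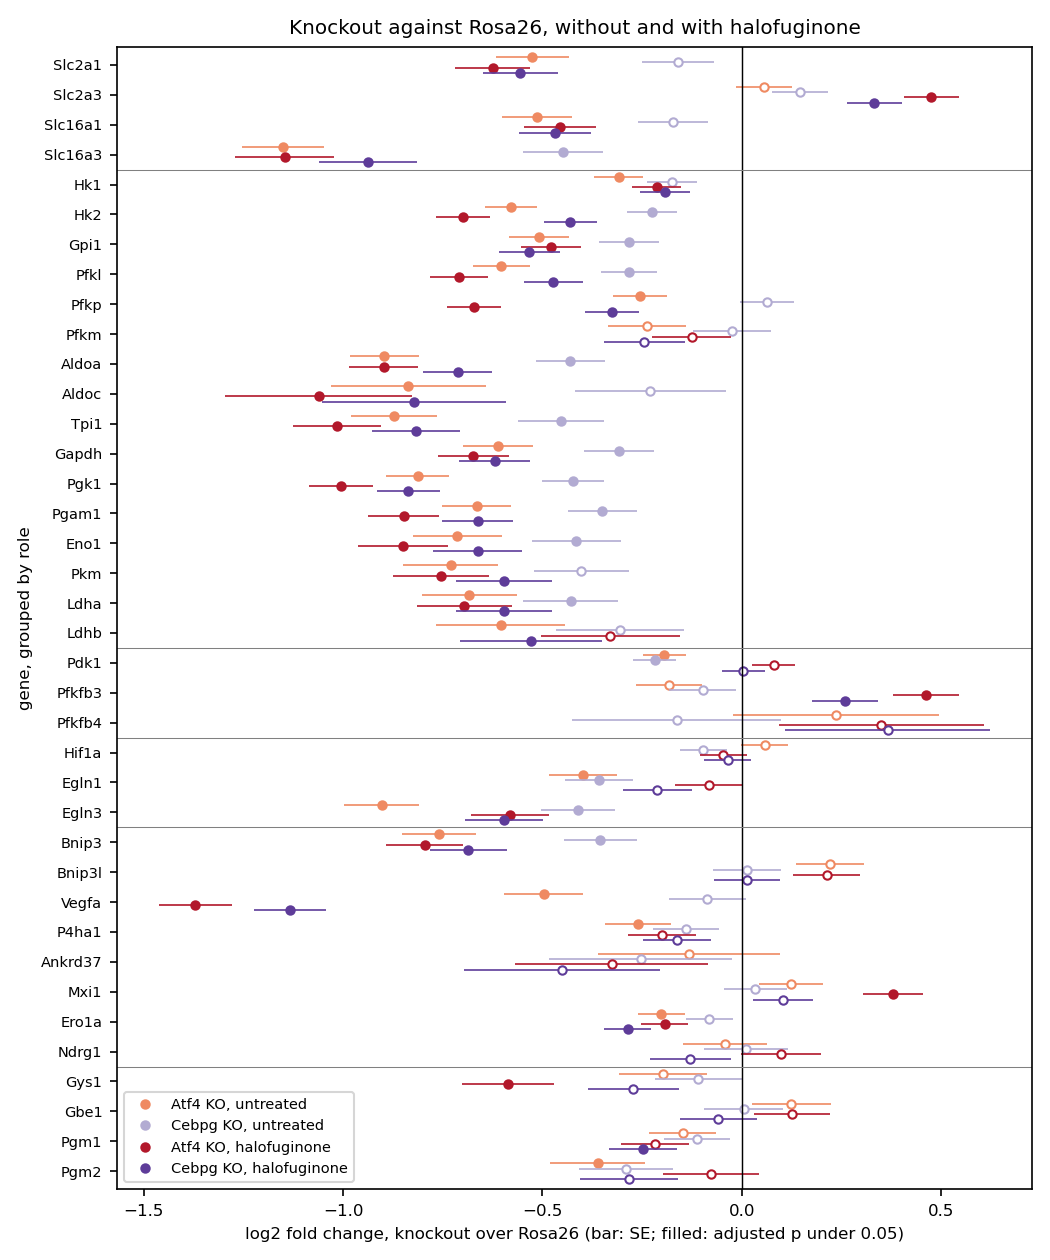
Log2 fold change of each gene (rows, by role) in knockout over Rosa26 cells, without and with halofuginone, with SE as bars and filled points where the adjusted p is under 0.05. Most enzymes, Slc16a3, Egln3 and Bnip3 lie left of 0 in all 4 comparisons, while Slc2a3 and Pfkfb3 lie right of 0 with halofuginone.

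Cebpg and Atf4 knockout cells were also compared with each other under the drug. Of the 38 genes 1, Pfkp, was higher in Cebpg knockout than in Atf4 knockout cells and 0 were lower, where 0.538% and 0.463% of all genes were. With no overlap of libraries 4 were higher and 3 lower (5.77% and 8.25% of all genes). Pfkp had 342, 318 and 308 CPM in Cebpg knockout libraries and 258, 269 and 234 CPM in Atf4 knockout libraries (log2 0.35, adjusted p = 0.0156). That call ended without Atf4 knockout replicate 1 or Cebpg knockout replicate 1 or 2 of the treated groups. Without the 3 libraries that stood apart 7 genes were higher and 2 lower, with Tpi1 at 0.24 (adjusted p = 0.00572), Eno1 at 0.27 (adjusted p = 0.00166) and Pkm at 0.26 (adjusted p = 0.00235), and 2.34% and 2.57% of all genes were called.

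The response to halofuginone itself differed between knockout and Rosa26 cells for few of these genes. The difference between a knockout's response and that of Rosa26 cells was past the test for 5 genes with Atf4 knockout (3 higher and 2 lower, where 2.41% and 4.01% of all genes were) and for 2 with Cebpg knockout (0 higher and 2 lower, where 0.374% and 2.10% were). With Atf4 knockout the difference of Aldoa was -0.00118 (95% interval -0.26 to 0.26), of Ldha -0.012 (-0.38 to 0.35) and of Slc16a3 0.00417 (-0.40 to 0.41). Over the 16 enzymes the Atf4 difference ran from -0.42 to 0.28, with a median of -0.0835 against -0.0566 over all genes. With Cebpg knockout all 16 enzymes had a negative difference, from -0.59 to -0.0167, with a median of -0.25 against -0.0618 over all genes, and Pgk1 was -0.41 (adjusted p = 0.0529). Without the 3 libraries that stood apart, 13 genes passed the test with Cebpg knockout (2 higher and 11 lower, where 1.72% and 5.43% of all genes were). Tpi1 was then -0.36 (adjusted p = 0.000275), Pgk1 -0.38 (adjusted p = 8.8e-05), Gapdh -0.30 (adjusted p = 0.00199) and Slc16a3 -0.52 (adjusted p = 0.0175). With Atf4 knockout 10 genes then passed (4 higher and 6 lower, where 5.25% and 9.68% were). Lower were Tpi1 (-0.19, adjusted p = 0.0461), Pgam1 (-0.24, adjusted p = 0.0485), Eno1 (-0.20, adjusted p = 0.0457), Gys1 (-0.49, adjusted p = 0.0446), Pfkp and Vegfa. Higher were Slc2a3, Pdk1, Pfkfb3 and Egln1.

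Pfkp was the enzyme whose response differed in both knockouts. It had 258, 269 and 234 CPM with and 321, 331 and 357 CPM without halofuginone in Atf4 knockout cells, 342, 318 and 308 CPM with it and 406, 426 and 427 CPM without it in Cebpg knockout cells, and 440.0, 376 and 398 CPM with it and 399.9, 400.4 and 405 CPM without it in Rosa26 cells. The groups overlapped in Rosa26 cells alone. It fell by 0.41 (adjusted p = 4.52e-05) and 0.38 (adjusted p = 8.91e-05) in the knockouts, and in Rosa26 cells the 95% interval of 0.0101 was -0.14 to 0.16. The difference in response was -0.42 (adjusted p = 0.0114) with Atf4 knockout, ending without its treated replicate 3 (adjusted p = 0.0505), and -0.39 (adjusted p = 0.0336) with Cebpg knockout, which passed under 10 of 25 alternatives (adjusted p 5.9e-05 to 0.206). The Cebpg call ended without treated Rosa26 replicate 1 or 3, replicate 2 or 3 of treated or untreated Cebpg knockout cells, untreated Atf4 knockout replicate 2 or any untreated Rosa26 library.

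Among the kinases that set the flux, Pfkfb3 makes fructose 2,6-bisphosphate, an activator of phosphofructokinase. It had 72, 59.9 and 71.8 CPM with and 41.2, 49.6 and 46.5 CPM without halofuginone in Atf4 knockout cells, 57.2, 57.4 and 62.5 CPM with it and 47.1, 47.4 and 51 CPM without it in Cebpg knockout cells, and 48, 53.2 and 46.7 CPM with it and 50.1, 51.5 and 54.2 CPM without it in Rosa26 cells. It rose by 0.57 (adjusted p = 8.96e-06) and 0.28 (adjusted p = 0.00758) in the Atf4 and Cebpg knockouts, with no overlap of libraries, and was -0.0747 (adjusted p = 0.494) in Rosa26 cells, where the libraries overlapped. Its response differed between Atf4 knockout and Rosa26 cells by 0.64 ± 0.117 (SE, adjusted p = 0.0021), under all 25 alternatives.

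Pdk1, a kinase that shuts off pyruvate dehydrogenase, fell in Rosa26 cells by 0.25 (adjusted p = 0.000797). Its means were 152 ± 10.1 CPM with and 149 ± 4.62 CPM without the drug in Atf4 knockout cells, 145 ± 2.88 CPM with it and 147 ± 2.37 CPM without it in Cebpg knockout cells, and 144 ± 6.72 CPM with it and 171 ± 0.671 CPM without it in Rosa26 cells. The difference in response with Atf4 knockout, 0.27 (adjusted p = 0.035), passed under 14 of 25 alternatives (adjusted p 1.72e-05 to 0.0937) and ended when any 1 untreated library of either genotype, treated Rosa26 replicate 1 or 3, or treated Atf4 knockout replicate 1 was left out. Pfkfb4, a relative of Pfkfb3, lay between 1.68 and 4.31 CPM and passed in none of the 10 comparisons.

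Oxygen sensing gave a rise of the factor and mixed changes of its hydroxylases. Hif1a had 447, 463 and 475 CPM with halofuginone in Atf4 knockout cells, against 257, 270.0 and 290.0 CPM without it. It had 451, 458 and 486 CPM in treated Cebpg knockout cells, against 237, 248 and 249.6 CPM untreated. In Rosa26 cells it had 481, 502 and 446 CPM, against 261, 259 and 265 CPM. Every treated library lay above every untreated one, and the rise was 1.69-fold, 1.9-fold and 1.82-fold (log2 0.76 ± 0.0592, 0.93 ± 0.0594 and 0.86 ± 0.0593, SE). No difference in response between genotypes passed the test: the difference in response was -0.10 (95% interval -0.29 to 0.0777) with Atf4 knockout and 0.0609 (-0.12 to 0.24) with Cebpg knockout. The abundance of the HIF-1 alpha protein was not measured.

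Egln1 and Egln3 encode prolyl hydroxylases of HIF alpha subunits, and both are known to be induced by HIF. Egln3 averaged 27.9 ± 3.03 CPM with and 35.9 ± 2.88 CPM without the drug in Atf4 knockout cells, 27.7 ± 2.26 CPM with it and 50.6 ± 3.25 CPM without it in Cebpg knockout cells, and 41.8 ± 4.71 CPM with it and 67.2 ± 3.37 CPM without it in Rosa26 cells. It fell by 0.36, 0.87 and 0.69 with the drug, and was lower by 0.90 (adjusted p = 1.68e-06) in untreated Atf4 knockout and by 0.41 (adjusted p = 0.0152) in untreated Cebpg knockout cells than in Rosa26 cells. Egln1 did not pass with the drug in any genotype (0.14, -0.0333 and -0.18), and untreated it was -0.40 (adjusted p = 0.00203) and -0.36 (adjusted p = 0.0209) in Atf4 and Cebpg knockout cells. The untreated Cebpg knockout calls of Egln3 and Egln1 were not firm, as they did not hold with every single library left out.

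The other hypoxia-responsive genes moved in both directions, as all genes did. With halofuginone 4 of 8 rose in each genotype, namely Bnip3l, Vegfa, Mxi1 and Ndrg1. In Atf4 knockout, Cebpg knockout and Rosa26 cells 3, 4 and 2 of 8 fell. Of all genes, 23.1%, 23.1% and 23.6% rose and 26.5%, 28.0% and 24.1% fell. Vegfa, the vascular growth factor, had 19.7, 22.1 and 24.6 CPM with and 13.2, 14.7 and 14 CPM without the drug in Atf4 knockout cells. It had 25.7, 25.8 and 26.8 CPM with it and 19.8, 16.9 and 19 CPM without it in Cebpg knockout cells, and 56.5, 64.1 and 51.2 CPM with it and 19.8, 19.9 and 19.5 CPM without it in Rosa26 cells. All 3 treated groups were above their untreated libraries, and the treated Rosa26 libraries were above all 15 others. Vegfa rose 1.58-fold, 1.41-fold and 2.9-fold (log2 0.66, 0.49 and 1.54; largest of the 3 adjusted p = 0.000226). The rise was smaller by 0.87 ± 0.135 (adjusted p = 0.000672) with Atf4 knockout and by 1.05 ± 0.133 (adjusted p = 1e-04) with Cebpg knockout (SE). Both differences passed under all 25 alternatives.

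Bnip3 and Bnip3l, which encode related receptors for mitophagy, the removal of mitochondria, moved apart. Bnip3 had 43.1, 35 and 48.3 CPM with halofuginone in Atf4 knockout cells and 65.6, 68.3 and 61 CPM without it. It had 43.8, 45.8 and 47 CPM with it and 86.5, 83.2 and 88.5 CPM without it in Cebpg knockout cells, and 67, 84.3 and 68.3 CPM with it and 109, 114 and 108 CPM without it in Rosa26 cells. Bnip3 fell by 0.62, 0.92 and 0.59, and untreated it was -0.76 (adjusted p = 9.97e-06) in Atf4 knockout and -0.35 (adjusted p = 0.0325) in Cebpg knockout cells. This untreated Cebpg knockout call was not firm, as it did not hold with every single library left out. Bnip3l instead rose by 0.52, 0.53 and 0.53, to 119.8 ± 13.3, 104 ± 11.5 and 103 ± 8.06 CPM in treated Atf4 knockout, Cebpg knockout and Rosa26 cells, against 83.3 ± 1.73, 72.1 ± 4.72 and 71.4 ± 2.0 CPM untreated. Per kilobase, Bnip3 stood at 0.551 to 0.629 times Bnip3l in treated and 1.26 to 1.42 times in untreated Atf4 knockout libraries. The ratio was 0.684 to 0.791 in treated and 1.9 to 2.18 in untreated Cebpg knockout libraries, and 1.14 to 1.28 in treated and 2.5 to 2.71 in untreated Rosa26 libraries.

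Mxi1, a MAX partner that opposes MYC, rose by 0.99, 0.80 and 0.73 in Atf4 knockout, Cebpg knockout and Rosa26 cells, and with the drug it was higher in Atf4 knockout than in Rosa26 cells (0.38, adjusted p = 0.000645). Ndrg1, a stress-induced gene, rose by 0.73, 0.45 and 0.59. P4ha1, a collagen prolyl hydroxylase subunit, fell by 0.43, 0.52 and 0.49. Ero1a, an oxidase of the endoplasmic reticulum, passed with the drug only in Cebpg knockout cells (-0.32, adjusted p = 0.000122), and the difference in its response from Rosa26 cells did not pass (-0.20, adjusted p = 0.257). Ankrd37, at 3.37 to 9.37 CPM, was -0.75 (adjusted p = 0.0129), -0.76 (adjusted p = 0.0134) and -0.56 (adjusted p = 0.0545). Its calls ended without treated Atf4 knockout replicate 1 or 2 or untreated replicate 1 (adjusted p up to 0.0856), and without treated Cebpg knockout replicate 2 or untreated replicate 1 (adjusted p up to 0.0541).

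Of the glycogen and glucose phosphate enzymes, Gbe1, the glycogen branching enzyme, rose by 0.46, 0.40 and 0.46 in Atf4 knockout, Cebpg knockout and Rosa26 cells. Gys1, the muscle-type glycogen synthase, fell by 0.72, 0.49 and 0.33, the last call ending without treated Rosa26 replicate 3 or untreated replicate 2 or 3 (adjusted p up to 0.13). Pgm1, a phosphoglucomutase, fell by 0.36, 0.43 and 0.29. Pgm2, a related mutase, was -0.11 (adjusted p = 0.492), -0.39 (adjusted p = 0.0123) and -0.39 (adjusted p = 0.00963); the Cebpg knockout call ended without its treated replicate 1 (adjusted p = 0.0771) and the Rosa26 call without its treated replicate 1 (adjusted p = 0.0544).

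**Figure D5:**
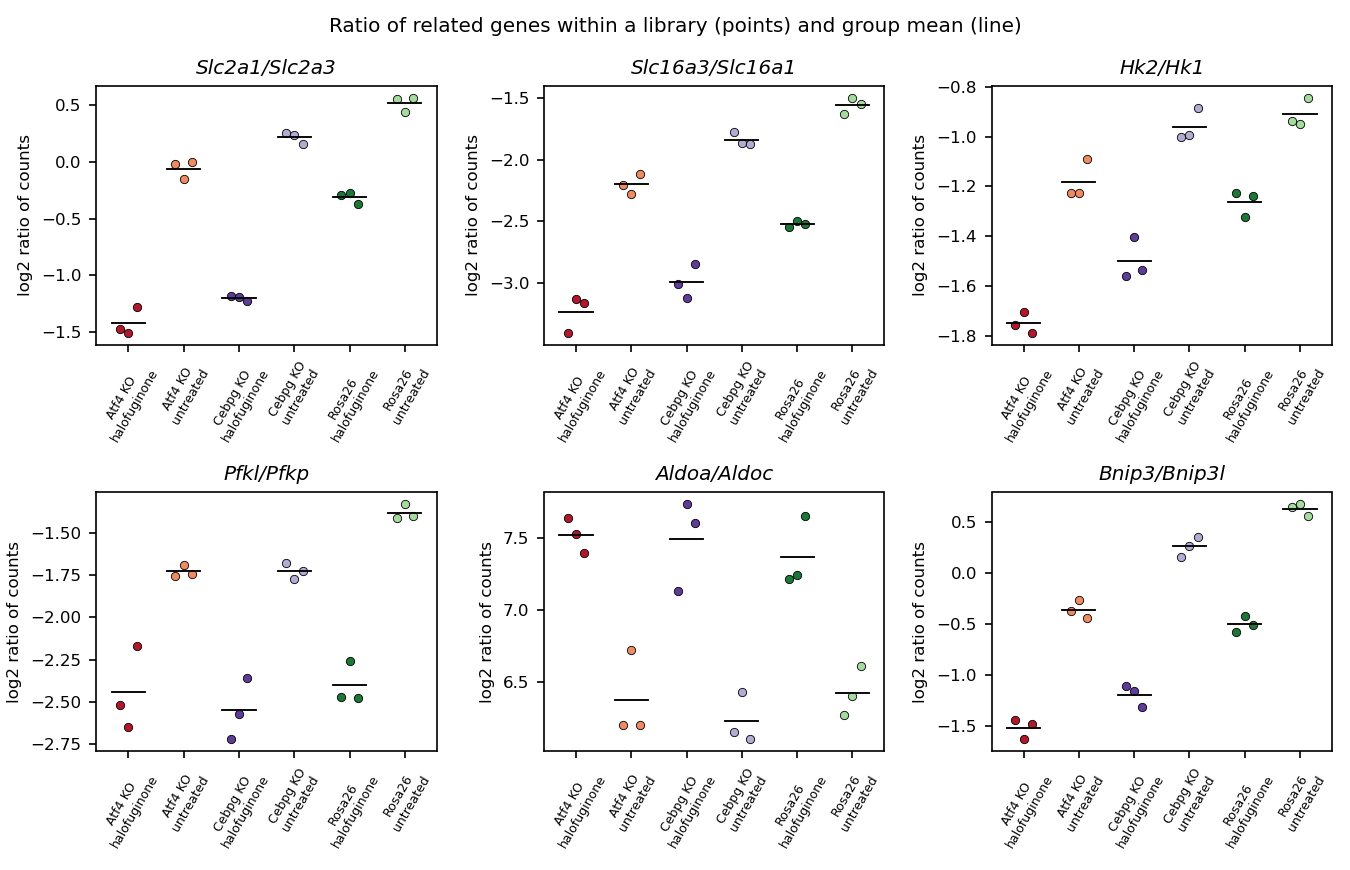
Log2 ratio of the counts of related genes in the same library (points) with the group mean (line). Slc2a1 over Slc2a3 and Bnip3 over Bnip3l fall with halofuginone and are lowest in treated Atf4 knockout libraries, while Aldoa over Aldoc is higher in every treated library than in any untreated one.

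Ratios of counts within a library do not depend on library scaling and are given as descriptions. The log2 count ratio of Slc16a3 to Slc16a1 averaged -3.23 ± 0.149, -2.99 ± 0.138 and -2.52 ± 0.0262 in treated Atf4 knockout, Cebpg knockout and Rosa26 libraries (SD, n = 3 each), against -2.20 ± 0.0825, -1.84 ± 0.054 and -1.56 ± 0.0647 in untreated ones. That of Hk2 to Hk1 averaged -1.75 ± 0.0426, -1.5 ± 0.0851 and -1.26 ± 0.0521, against -1.18 ± 0.0786, -0.96 ± 0.0647 and -0.91 ± 0.0577. Pfkl to Pfkp averaged -2.44 ± 0.247, -2.55 ± 0.184 and -2.40 ± 0.124 in treated groups, against -1.73 ± 0.0356, -1.73 ± 0.048 and -1.38 ± 0.0446. The log2 count ratio of Ldha to Ldhb lay between 7.67 and 8.62 in all 18 libraries, and treated and untreated libraries overlapped in each genotype. Treated Atf4 knockout libraries (7.67 to 7.997) lay just below treated Rosa26 libraries (7.9997 to 8.33) and below untreated ones (8.05 to 8.24).

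Genes around this chain were counted from companion lists of related pathways. With the drug 23.1%, 23.1% and 23.6% of all genes rose and 26.5%, 28.0% and 24.1% fell in Atf4 knockout, Cebpg knockout and Rosa26 cells. Of 7 genes of the pentose phosphate pathway, which branches from glycolysis to make NADPH and ribose, 6, 5 and 5 fell with halofuginone in Atf4 knockout, Cebpg knockout and Rosa26 cells and 0 rose. Tkt, transketolase, averaged 348 ± 40.1 CPM in treated and 631 ± 14.6 CPM in untreated Rosa26 cells (-0.86, adjusted p = 2.89e-06). G6pdx, the entry enzyme, was -0.52 and Taldo1, transaldolase, -0.45. Of 12 measured genes of pyruvate entry into mitochondria, 7, 8 and 7 fell and 0, 1 and 1 rose. Among them the carrier subunit Mpc1 was -0.78, the dehydrogenase kinase Pdk3 -0.59 and the dehydrogenase phosphatase Pdp2 -0.87 in Rosa26 cells.

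The other glycolysis and gluconeogenesis enzymes moved in both directions, as all genes did. Of 13 measured, 3, 5 and 6 rose and 4, 4 and 1 fell in Atf4 knockout, Cebpg knockout and Rosa26 cells. Over all genes, 23.1%, 23.1% and 23.6% rose and 26.5%, 28.0% and 24.1% fell. Pck2, the mitochondrial enzyme that makes phosphoenolpyruvate from oxaloacetate, averaged 12.4 ± 1.3 CPM with and 18.7 ± 1.06 CPM without halofuginone in Atf4 knockout cells, 12 ± 1.28 CPM with it and 17.2 ± 1.64 CPM without it in Cebpg knockout cells, and 55.7 ± 5.1 CPM with it and 32.6 ± 1.5 CPM without it in Rosa26 cells. It rose in Rosa26 cells (0.77, adjusted p = 9.68e-07) and fell in both knockouts (-0.59, adjusted p = 0.000102; -0.52, adjusted p = 0.000379). Pcx, pyruvate carboxylase, fell by 1.28, 1.21 and 0.67. Adpgk, an ADP-dependent glucokinase, was -0.26 (adjusted p = 0.000274), -0.10 (adjusted p = 0.114) and 0.25 (adjusted p = 0.000498), and Pfkfb2, another fructose 2,6-bisphosphate enzyme, rose by 0.79 in Rosa26 cells.

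Further parts of the HIF pathway and its targets moved in both directions, as all genes did (23.1% to 23.6% rose and 24.1% to 28.0% fell with the drug), and nothing particular to these lists is read from the counts. Of 9 measured pathway components 3, 3 and 2 rose and 1, 4 and 2 fell. Hif1an, the asparaginyl hydroxylase that restrains HIF, rose by 0.73, 0.64 and 0.39 in Atf4 knockout, Cebpg knockout and Rosa26 cells, and Vhl, which targets HIF alpha subunits for degradation, by 1.13, 0.95 and 0.59. Eloc, a subunit of the VHL complex, was -0.45 in Rosa26 cells (adjusted p = 0.0183). Of 15 other measured HIF target genes 5 rose in each genotype and 4, 6 and 5 fell. Rora, a nuclear receptor, rose to 19.4 ± 1.69, 17.1 ± 0.547 and 12.4 ± 0.646 CPM, against 3.55 ± 0.485, 3.37 ± 0.293 and 2.82 ± 0.526 CPM untreated. Bhlhe40, a repressor that shapes T cell metabolism, rose by 1.32, 1.08 and 0.78. Cited2, which competes with HIF for its coactivators, fell by 0.60, 0.91 and 0.83. Nfil3, a bZIP factor, rose in Rosa26 cells (0.43, adjusted p = 0.00184), fell in Cebpg knockout cells (-0.36, adjusted p = 0.00905) and was -0.0551 (adjusted p = 0.722) in Atf4 knockout cells.

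Of 7 measured glycogen enzymes 2, 3 and 2 rose and 3, 4 and 2 fell, where 23.1%, 23.1% and 23.6% of all genes rose and 26.5%, 28.0% and 24.1% fell. Pygl, the liver glycogen phosphorylase, rose to 16.9 ± 1.25, 13.2 ± 1.38 and 9.25 ± 1.15 CPM with the drug, against 4.91 ± 0.98, 4.55 ± 0.445 and 5.25 ± 1.47 CPM without it. Pygm, the muscle form, was 0.38, 0.48 and 0.40, and Pgm3, a phosphoglucomutase of hexosamine synthesis, -0.69, -0.72 and -0.44, all past the test. Of 4 other measured carriers and partners 0, 1 and 1 rose and 2, 1 and 1 fell, among them Bsg, the chaperone of MCT1 and MCT4, by 0.45, 0.63 and 0.35, while Slc2a9, a urate carrier, was 0.18, 0.52 and 0.35.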

How the data were processed

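RNA from 18 libraries in 6 groups was measured by poly-A RNA-seq with directional library preparation, per the labels' protocols. The authors deposited 1 table of raw counts per gene, already limited to 14695 genes. The submitters' processing notes name FastQC, MultiQC, Trimmomatic, STAR, HTSeq, edgeR and build GRCm39, with no role, order or version, and the strand setting of the counting is not given in the sources used here, so overlapping and antisense genes are uncertain. Of 449 blank gene names, 431 were filled from a table of identifiers.

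Counts were fitted with edgeR 4.0.16 (R 4.3.3, TMM scaling, robust quasi-likelihood) over all 18 libraries with 1 term per group, and p-values were adjusted over all genes by Benjamini-Hochberg with a threshold of 0.05. CPM are TMM-scaled, and fold changes are drug over untreated or knockout over Rosa26. The procedure was tested on simulated data. Alternatives were DESeq2 1.42.0, RLE and upper-quartile scaling, a mean of at least 5 CPM, the compared groups only, a replicate block, each library left out, and the 3 libraries that stood apart left out together. Libraries held 14.2 to 20.3 M counts, so genes under 10 CPM carry the most counting error. Lengths per kilobase came from GENCODE M21 and promoter windows from RefSeq, both on GRCm38. Besides the 38, the genes named of each companion list are up to 3 called with halofuginone in Rosa26 cells by size, at a mean of at least 5 CPM, and any called in a difference of response. The members and the lists were chosen with earlier results of these data known. Tests use all 18 libraries unless a left-out library is named. Same-numbered libraries deviated together (every correlation over 0.1) between the treated Cebpg and Atf4 knockouts, at 0.412, 0.197 and 0.661, and in no other comparison.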

Additional observations from a re-analysis of the deposited data

Results flagged for a closer look

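Among the 38 genes and the companion lists, for 11 genes the change with halofuginone in Atf4 knockout cells differed from that in Rosa26 cells past the test of that difference (edgeR quasi-likelihood interaction, adjusted over all genes), and for 5 genes the change in Cebpg knockout cells did. Over all genes, 2.41% passed upward and 4.01% downward with Atf4 knockout, and 0.374% and 2.10% with Cebpg knockout. Of the 38 genes, 7.89% passed upward and 5.26% downward with Atf4 knockout, and 0% and 5.26% with Cebpg knockout. The companion lists held 7, 12, 13, 9, 15, 7 and 4 measured genes, of which 6 passed with Atf4 and 3 with Cebpg knockout. Values are log2 differences, knockout response minus Rosa26 response. Slc2a3 (0.42, adjusted p = 0.0136), Pdk1 (0.27, adjusted p = 0.035) and Pfkfb3 (0.64, adjusted p = 0.0021) responded more upward in Atf4 knockout cells, as did the companion genes Hif1an (0.34, adjusted p = 0.0152), Bhlhe40 (0.54, adjusted p = 0.0126) and Pygl (0.96, adjusted p = 0.0251). Pfkp (-0.42, adjusted p = 0.0114) and Vegfa (-0.87, adjusted p = 0.000672) responded more downward there, as did Adpgk (-0.51, adjusted p = 0.000309), Pcx (-0.61, adjusted p = 0.0239) and Pck2 (-1.36, adjusted p = 9.86e-06).

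In Cebpg knockout cells the responses of Pfkp (-0.39, adjusted p = 0.0336), Vegfa (-1.05, adjusted p = 1e-04), Adpgk (-0.35, adjusted p = 0.0117), Pck2 (-1.30, adjusted p = 1.73e-05) and Nfil3 (-0.80, adjusted p = 0.00561) were more downward than in Rosa26 cells. Pfkp, Vegfa, Adpgk and Pck2 differed in both knockouts, which share the Rosa26 libraries. Vegfa in both treated knockouts lay below every treated Rosa26 library.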

How the results depend on the processing

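Under the 25 alternatives no value for a single gene changed sign while called: 9081 kept direction and side of the threshold, 222 lost their call and 177 gained one. Counts of the 38 genes changed by halofuginone ran from 29 to 34 in Rosa26, 31 to 33 in Atf4 knockout and 34 to 35 in Cebpg knockout cells. Upper-quartile scaling moved the median of all genes by 0.108 in Cebpg knockout cells with the drug.

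Untreated Cebpg knockout against Rosa26 cells (15 genes) gave 9 with the replicate block and 2 to 20 with 1 library left out. Cebpg against Atf4 knockout cells with halofuginone (1 gene) gave 2 by RLE, 3 by upper quartile, 4 with at least 5 CPM, 0 with the compared groups only, 4 by DESeq2, 9 without the 3 libraries that stood apart and 0 to 6 with 1 left out. The difference in response with Atf4 knockout (5 genes) gave 10 without the 3 libraries and 4 to 7 with 1 left out. That with Cebpg knockout (2 genes) gave 4 by upper quartile, 4 with at least 5 CPM, 1 with the replicate block, 5 by DESeq2, 13 without the 3 libraries and 1 to 5 with 1 left out.

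Companion genes in untreated Cebpg knockout cells (2) gave 10 by RLE, 6 by upper quartile, 10 with at least 5 CPM, 26 with compared groups only, 13 by DESeq2, 25 without the 3 libraries and 2 to 20 with 1 left out. In untreated Atf4 knockout cells (21) they gave 38 with compared groups only, 38 without the 3 libraries and 15 to 35 with 1 left out, and with halofuginone (28) 17 with compared groups only. Between the treated knockouts (0) they gave 6 without the 3 libraries and 0 to 3. Differences in response with Atf4 knockout (6) gave 10 with at least 5 CPM, 10 by DESeq2, 13 without the 3 libraries and 4 to 10, and with Cebpg knockout (3) 6, 5, 8 and 2 to 5 under the same settings.

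Without the 7 abundant enzymes with many pseudogenes the log2 difference in the share of counts taken by these genes moved to -0.13 with halofuginone in Atf4 knockout cells (-0.64 with them), -0.24 in Cebpg knockout cells (-0.77) and -0.18 in Rosa26 cells (-0.63). For knockout over Rosa26 cells it moved to -0.26 in untreated Atf4 knockout (-0.53), -0.12 in untreated Cebpg knockout (-0.28), -0.21 in treated Atf4 knockout (-0.54) and -0.18 in treated Cebpg knockout cells (-0.43), and to 0.0346 for treated Cebpg over Atf4 knockout (0.11). The cause of these changes was not tested.

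Correlations of same-numbered libraries ran from -0.78 to 0.66, with 9 of 24 over 0.1. Every pair was over 0.1 between the treated Cebpg and Atf4 knockouts alone, where the replicate block again called 1 gene, Pfkp (0.35, adjusted p = 0.0359). The treated libraries that stood apart carry the same number in both knockouts and another in Rosa26 cells, so these correlations cannot decide if libraries are paired. For the other comparisons the labels give only a shared number, and pairing is not known. The block gave the counts above. Ldhb, Ankrd37 and Pfkfb4 lay under 10 CPM in every library and carry large counting error.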
